A study of Mus musculus with 14 samples.

Results

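The genes described here are 41 factors of DNA replication and of deoxynucleotide synthesis, chosen by name for their function: polymerase and primase subunits, the sliding clamp and its loader, single-strand binding proteins, GINS, Okazaki fragment enzymes, the origin recognition complex, initiation factors, nucleotide enzymes, chromatin assembly factors and the histone mRNA binding protein Slbp. They were followed in mouse embryonic stem cells (ESC), which renew themselves without specialising, and in embryoid bodies (EB), the clumps those cells form in suspension as they start to specialise. Of the 41 genes, 40 had a probe set, out of 18194 genes represented on the array, and these 40 were all among the 14365 genes bright enough to be tested. Chaf1a was not analysed here.

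Wild-type (WT) cells were measured as ESC (3 arrays, lines B21, J1 and R1) and as EB (3 arrays, the same lines). Cells labelled TKO were measured as ESC (3 arrays, lines 7-4-1, Dutch and Ta1-12) and as EB (5 arrays, those lines with 2-55-2 and 14-14-4). TKO is not spelled out in the labels and is read here, from the series title and common usage, as triple knockout of the Rb family genes Rb1, Rbl1 and Rbl2. No further allele, promoter or Cre driver, no treatment, no strain, no statement that a line is clonal and no time of EB culture is given in the sources used here.

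DNA replication starts at origins. The origin recognition complex binds there and, with further factors, loads the MCM helicase in G1. The kinase Cdc7 with its activator Dbf4, together with GINS and Cdc45, then turns the helicase on, and primase, the polymerases, the clamp Pcna and its loader copy the strands. Ribonucleotide reductase, thymidylate synthase and thymidine kinase supply deoxynucleotides. Many of these genes are textbook targets of E2F transcription factors, which the Rb family proteins hold back when cells leave the cycle, and embryonic stem cells, with their short G1 phase, express them highly. The series title asks after cell cycle exit and terminal differentiation when the Rb family is missing, and these genes report on the S phase programme.

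Values are probe set intensities, in the line order B21, J1 and R1 for WT, 7-4-1, Dutch and Ta1-12 for TKO ESC, and 2-55-2, 14-14-4, 7-4-1, Dutch and Ta1-12 for TKO EB. Array medians lay between 83.2 and 107.9. Rbl1, used as a check of the labels, read 694, 462 and 356 in WT ESC and 586, 1090 and 493 in WT EB. It read 24.5, 250.3 and 492.5 in TKO ESC and 31.7, 15.9, 38.3, 377 and 1096 in TKO EB. The arrays labelled Ta1-12 had Rbl1 at WT level, those labelled Dutch lay below the WT arrays of the same stage but well above the floor of 32 applied to all values, and those of the other 3 TKO lines lay close to or under it. Rb1 read 116 to 913 and Rbl2 read 297 to 1099 on the TKO arrays, against 138 to 1018 and 411 to 1727 on the WT arrays. Rb1 did not follow Rbl1. The Ta1-12 arrays had the lowest Rb1 of the TKO arrays at each stage (115.9 in ESC, 300.5 in EB), below all WT arrays of that stage. Their Rbl2 was the highest of the TKO arrays at each stage (843 and 1099). Where these probe sets lie relative to the deletions is unknown here. The lines are therefore called by their labels, and results with TKO EB are given with and without line Ta1-12.

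In wild-type cells the replication genes fell as a group when ESC became EB. Between WT EB and WT ESC, 25 of the 40 genes were lower past an adjusted p of 0.05 (limma, Benjamini-Hochberg over all 14365 genes) and 0 were higher, where 17.4% of all tested genes were lower and 26.2% higher. The log2 change was negative for 40 of 40 genes, as it was for 44.1% of all tested genes, with a median of -0.93 against 0.13 for all tested genes. For 26 of the 40, the 3 WT EB arrays all lay below the 3 WT ESC arrays, which held for 25.2% of all tested genes. Line B21 gave the lowest WT EB value for 38 of the 40 genes, and without that 1 array 12 of the 40 passed, beside 12.2% of all genes. Those 12 were Pola2, Pold1, Pole, Rfc5, Gins1, Lig1, Orc1, Orc2, Orc3, Orc5, Dut and Dbf4, and the median was then -0.76. Without line Ta1-12, which enters through the shared error, the count was 28, beside 17.7%. In whole cultures such as these, fewer cells of a type and less RNA per cell cannot be told apart.

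**Figure D1:**
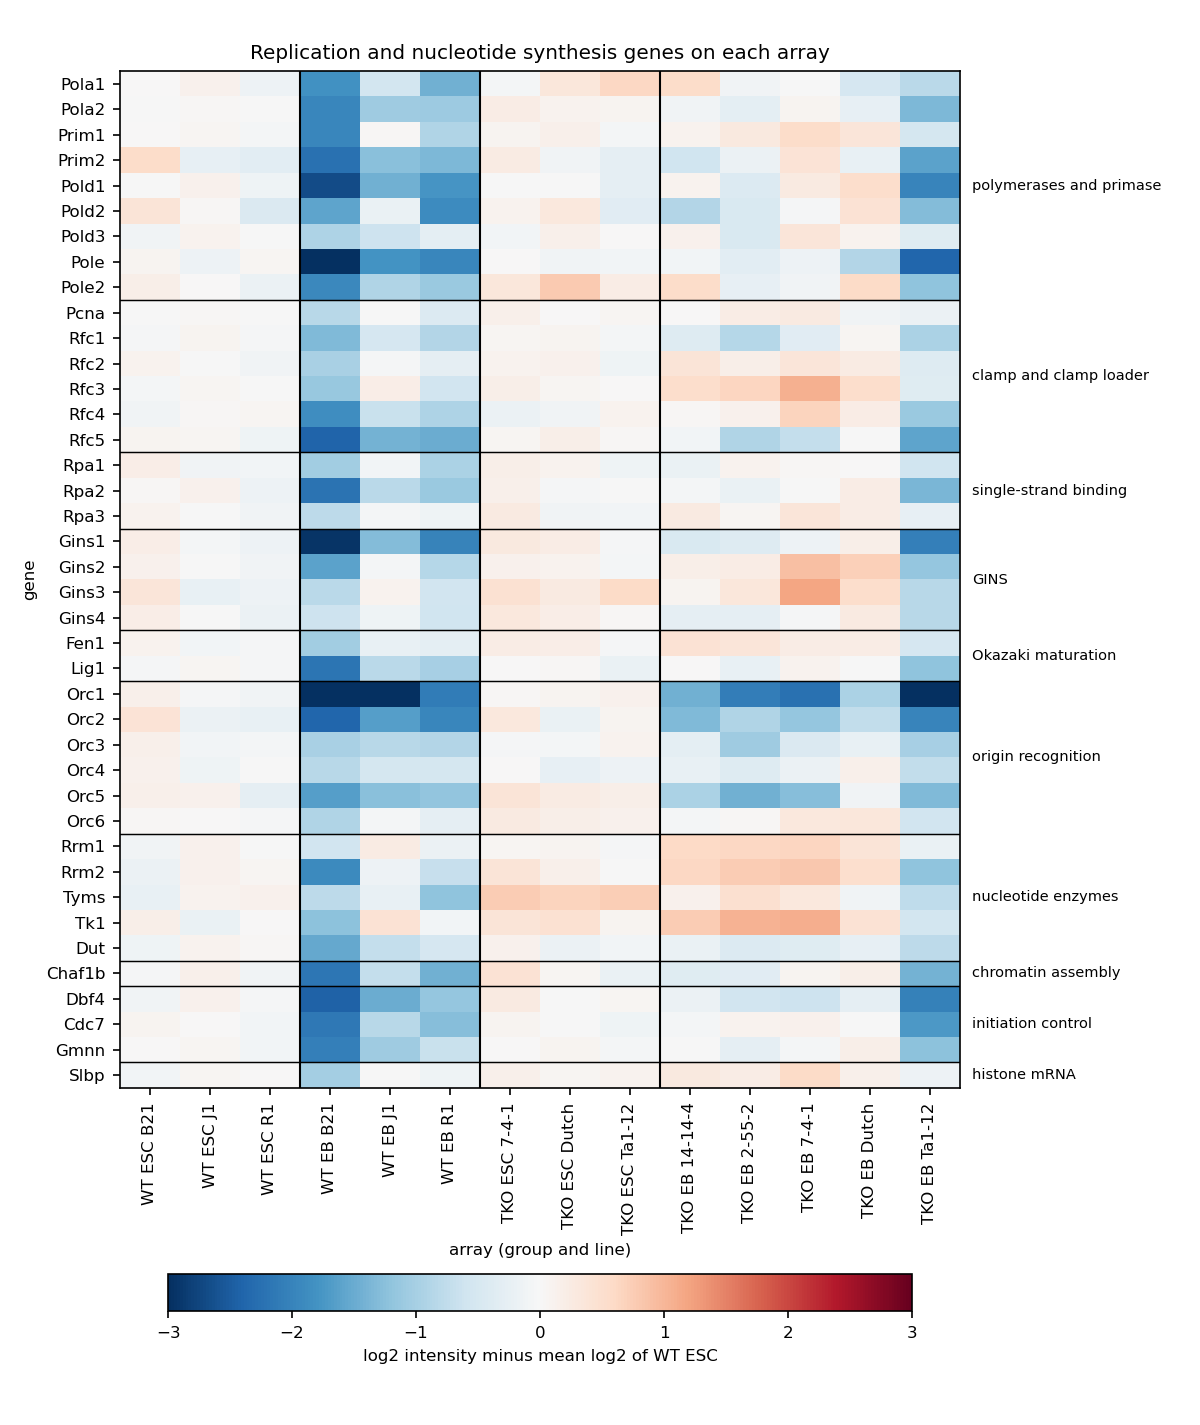
Heat map of the 40 genes (rows, grouped by role) on the 14 arrays (columns); colour is the log2 intensity minus the mean log2 of WT ESC, from blue (lower) to red (higher), with values beyond -3 or 3 drawn at the ends of the scale. The 3 WT EB columns and the column labelled TKO EB Ta1-12 are blue over most rows, while the other 4 TKO EB columns are bluest at Orc1.

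In the origin recognition complex 5 of 6 subunits fell, and 4 of 6 without the WT EB array of B21, by amounts that differed widely. Orc1, the subunit that joins the complex in G1 and is turned over afterwards, read 2286, 2001 and 1922 in WT ESC and 138, 238 and 479 in WT EB. It had the largest fall of the 40 genes, 8.25-fold (log2 -3.04 ± 0.50 SE, adjusted p = 8.31e-04). Each WT EB array lay far below each WT ESC array. Orc2, which stays on chromatin with the core of the complex, read 3321, 2205 and 2159 in WT ESC and 479, 794 and 646 in WT EB. It fell 4.01-fold (SE 0.31 on the log2 scale, adjusted p = 5.90e-04), with the smallest adjusted p among the 40 genes. Orc5 read 2348, 2312 and 1777 in WT ESC against 673, 889 and 931 in WT EB (-1.37 ± 0.30, adjusted p = 0.00327). Orc3 went from 2252, 1919 and 1946 to 1035, 1136 and 1104 (-0.90 ± 0.22, adjusted p = 0.00621), and its WT EB values were nearly equal between lines. The 2 dimmer Orc3 probe sets did not pass (-0.05 and -0.58, adjusted p = 0.851 and 0.0771, limma on probe sets). Orc4 passed as well (-0.63 ± 0.20, adjusted p = 0.0211), but a dimmer Orc4 probe set, with medians of 473 in WT ESC and 749 in WT EB, moved the other way (0.54), so the direction for Orc4 rests on the probe set chosen. With the cell line as a block Orc4 did not pass (adjusted p = 0.0673). Orc6, the smallest and most loosely bound subunit, did not pass (-0.41 ± 0.24, adjusted p = 0.176), although its 3 WT EB arrays lay below its WT ESC arrays.

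The initiation factors fell too, 3 of 3, or 1 of 3 (Dbf4) without the WT EB array of B21. Dbf4, the regulatory subunit that activates Cdc7, read 4710, 5534 and 4890 in WT ESC and 939, 1795 and 2264 in WT EB (-1.69 ± 0.42, adjusted p = 0.00671). Cdc7, the kinase itself, read 2034, 1947 and 1825 in WT ESC and 440.0, 1087 and 798 in WT EB (-1.41 ± 0.44, adjusted p = 0.0201). The arrays of the groups did not overlap for either gene. A dimmer Cdc7 probe set did not pass (-0.47, adjusted p = 0.148, limma on probe sets). Gmnn, geminin, which blocks relicensing of origins after S phase has begun, fell by 1.26 on the log2 scale (SE 0.35, adjusted p = 0.0121), from 6533, 6717 and 6088 to 1559, 3052 and 4074.

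The promoters of 5 of these genes are shown because they carry letters of the E2F site before the start of the gene. Of these 5, Orc1, Orc3 and Pola1 fell in WT EB, and Gins3 and Rfc3 did not pass. Sequences are from RefSeq (build GRCm38.p6), 150 bases ending at the last base before the start, written 5′ to 3′ along the gene's strand. Capitals mark the match to an E2F site, which is TTTCGCGC, TTTCCCGC, TTTGGCGC or TTTGCCGC on either strand.
Orc1 (chr4:108579304-108579453, plus strand): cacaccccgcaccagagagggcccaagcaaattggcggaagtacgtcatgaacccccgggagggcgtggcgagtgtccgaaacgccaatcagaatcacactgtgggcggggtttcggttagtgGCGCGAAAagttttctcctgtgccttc
Orc3 (chr4:34614943-34615092, minus strand): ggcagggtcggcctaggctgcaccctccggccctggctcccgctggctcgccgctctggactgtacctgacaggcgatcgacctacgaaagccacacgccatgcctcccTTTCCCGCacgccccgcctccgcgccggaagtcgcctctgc
Gins3 (chr8:95633409-95633558, plus strand): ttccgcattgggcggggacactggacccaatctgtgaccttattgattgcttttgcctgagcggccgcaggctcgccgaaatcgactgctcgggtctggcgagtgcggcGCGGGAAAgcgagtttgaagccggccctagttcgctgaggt
Pola1 (chrX:93632156-93632305, minus strand): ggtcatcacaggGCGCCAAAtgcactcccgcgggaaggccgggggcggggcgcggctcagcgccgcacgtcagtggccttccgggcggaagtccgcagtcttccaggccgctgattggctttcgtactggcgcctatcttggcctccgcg
Rfc3 (chr5:151651209-151651358, minus strand): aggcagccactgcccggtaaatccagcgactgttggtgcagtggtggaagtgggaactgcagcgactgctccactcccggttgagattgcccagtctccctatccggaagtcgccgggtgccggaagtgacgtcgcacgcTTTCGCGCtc
Counting the last base before the start as -1, the match begins at position -27 for Orc1, -41 for Orc3, -41 for Gins3, -138 for Pola1 and -10 for Rfc3.

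Promoters of 34 of the 41 genes were found in the RefSeq table, as 300 bases from 250 before to 50 after the start. An E2F match lay in 9 of the 34 (26.5%): Orc1, Orc3, Gins3, Pola1 and Rfc3 above, and Pold1, Pold3, Pole2 and Lig1, where it lay only after the start. A gene was counted if any of its promoters held the match. The share was 2.6% among all 27025 genes with such a promoter and 4.37% among tested genes that had one. The Sp1-type letters GGGCGG were in 79.4% of the 34, against 38.2% of all genes with a promoter. CCAAT, the NF-Y box, was in 52.9% against 41.1%, and TTTGAA, the letters of a CHR element, in 14.7% against 20.2%. Of tested genes with a promoter, 65.2% held GGGCGG, 42.5% CCAAT and 14.6% TTTGAA. Both strands were read, and matches of different motifs may overlap. Of the 9 genes with an E2F match, 7 were lower in WT EB, beside 17.4% of all tested genes, with a median log2 change of -1.27. Of the 24 tested genes with a promoter and no match, 14 were lower, with a median of -0.92. Without the WT EB array of B21, Orc1, Orc3, Pold1 and Lig1 still passed among those with a match. With and without GGGCGG, 18 of 26 and 3 of 7 were lower. For CCAAT it was 8 of 17 and 13 of 16, and for TTTGAA 3 of 5 and 18 of 28. These splits were not tested. Orc2 and Orc5 were among the genes that fell without an E2F match in this window.

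GINS, the 4-subunit ring that binds the helicase, was uneven. Gins1 read 2984, 2482 and 2346 in WT ESC and 339, 1050 and 645 in WT EB, and fell 4.23-fold (-2.08 ± 0.49, adjusted p = 0.00535). Its 3 partners in the same ring did not pass. Their log2 changes were -0.85 ± 0.46 for Gins2, -0.43 ± 0.41 for Gins3 and -0.45 ± 0.23 for Gins4, and the arrays of both groups overlapped for each of them.

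Of the polymerase and primase genes 8 of 9 fell, and 3 of 9 (Pola2, Pold1 and Pole) without the WT EB array of B21. Pole, the catalytic subunit of the leading strand polymerase epsilon, read 2078, 1756 and 2032 in WT ESC and 226, 561 and 502 in WT EB, a 4.88-fold fall (-2.29 ± 0.51, adjusted p = 0.00383). Pold1, the catalytic subunit of the lagging strand polymerase delta, went from 2450, 2690 and 2254 to 385, 905 and 722 (-1.96 ± 0.52, adjusted p = 0.00917). Neither gene had overlapping arrays, and the lowest array was B21 for both. The second subunits fell too, Pole2 with a log2 change of -1.32 ± 0.40 (adjusted p = 0.0194) and Pold2 with -1.23 ± 0.47. Pold2 was the gene just inside the threshold (adjusted p = 0.0493). Its WT ESC values were 7143, 5600 and 4026 and its WT EB values 1818, 4744 and 1461, so the WT EB array of J1 lay above the WT ESC array of R1. Pold3, an accessory subunit of polymerase delta, was lower by a smaller step (-0.61 ± 0.22, adjusted p = 0.0415, or 0.0652 with the cell line as a block), and both of its dimmer probe sets were lower by more (-0.91 and -1.39).

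Polymerase alpha-primase makes the primers. Its subunits Pola1 (-1.27 ± 0.36, adjusted p = 0.0133), Pola2 (-1.37 ± 0.33, adjusted p = 0.00557) and Prim2 (-1.61 ± 0.44, adjusted p = 0.0108) fell. Pola2 read 1762, 1808 and 1766 in WT ESC and 461, 845 and 840 in WT EB, with no overlap. Prim1, the catalytic primase subunit, was just outside the threshold (-0.94 ± 0.38, adjusted p = 0.0616). It read 4078, 4216 and 3877 in WT ESC and 1052, 4133 and 2177 in WT EB. The J1 value was inside the WT ESC range and the B21 value was far below it.

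The sliding clamp Pcna, the ring that tethers the polymerases, was the other gene just outside the threshold. It read 13926, 14456 and 14082 in WT ESC and 7905, 14088 and 10596 in WT EB (-0.42 ± 0.17, adjusted p = 0.0602). The J1 value again lay inside the WT ESC range. Of the 5 clamp loader subunits, 3 fell, and of these Rfc5 without the WT EB array of B21. Rfc5 went from 7396, 7319 and 6379 to 1330.4, 2646 and 2521 (-1.76 ± 0.35, adjusted p = 0.00227), Rfc4 changed by -1.16 ± 0.38 (adjusted p = 0.0262, or 0.0585 with the cell line as a block) and Rfc1, the large subunit, by -0.90 ± 0.25 (adjusted p = 0.0127). Rfc2 (-0.43 ± 0.24, adjusted p = 0.163) and Rfc3 (-0.51 ± 0.34, adjusted p = 0.241) did not pass, and for Rfc3 the WT EB value of J1, 1882, exceeded all 3 WT ESC values.

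Replication protein A coats single-stranded DNA. Its subunit Rpa2 fell from 3081, 3310 and 2728 to 649, 1719 and 1395 (-1.39 ± 0.39, adjusted p = 0.0126), and its large subunit Rpa1 by a smaller step (-0.70 ± 0.23, adjusted p = 0.0283, arrays overlapping). Rpa3 did not pass (-0.32 ± 0.20, adjusted p = 0.216). Of the enzymes that finish Okazaki fragments, the ligase Lig1 fell, from 4717, 4992 and 4698 to 1057, 2744 and 2396 (-1.33 ± 0.35, adjusted p = 0.00982). The flap nuclease Fen1 read 3261, 2828 and 2953 against 1455, 2574 and 2466. Its groups did not overlap, but the change of -0.52 ± 0.25 did not pass (adjusted p = 0.104).

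Of the nucleotide enzymes 1 of 5 was lower, a share near the 17.4% of all tested genes, and 3 of 5 were lower without line Ta1-12. Dut, which removes dUTP, was the one that fell with all arrays (-0.91 ± 0.22, adjusted p = 0.0065), from 6303, 7443 and 7055 to 2389, 4232 and 4907. Rrm1, the large subunit of ribonucleotide reductase, read 4136, 4918 and 4422 in WT ESC and 2990, 5349 and 3982 in WT EB (-0.17 ± 0.23, adjusted p = 0.571). Rrm2, its small subunit, read 7102, 8853 and 8383 against 2145, 7248 and 4983 (-0.92 ± 0.49, adjusted p = 0.145), a wide spread in which B21 was lowest. Tk1, thymidine kinase of cycling cells, had a change of -0.29 ± 0.43 (adjusted p = 0.603), with the WT EB value of J1 (2823) above every WT ESC value. Tyms, thymidylate synthase, was measured by dim probe sets only. The one used read 102, 127 and 129 in WT ESC and 68.3, 100.9 and 51.2 in WT EB (-0.75 ± 0.32, adjusted p = 0.0736). For comparison, the paralogues Rrm2b and Tk2, which serve DNA repair and mitochondria and are not tied to S phase, read 302, 259 and 228 (Rrm2b) and 494, 455 and 365 (Tk2) in WT ESC, and 413, 318 and 263 and 727, 564 and 474 in WT EB.

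Chaf1b, a subunit of the CAF-1 chaperone that places histones on new DNA, fell by 1.45 on the log2 scale (SE 0.40, adjusted p = 0.0122). Slbp, which binds the stem loop of replication histone mRNAs, did not pass with its brightest probe set (-0.38 ± 0.23, adjusted p = 0.188). A much dimmer Slbp probe set, with medians of 221 in WT ESC and 79.3 in WT EB, gave -1.41.

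In TKO cells few of these genes were called between the stages. Between TKO EB and TKO ESC, 4 of the 40 genes were lower and 0 higher, beside 14.9% lower and 20.8% higher among all tested genes. The 4 were all subunits of the origin recognition complex, with each gene read by its brightest probe set. A second Rfc1 probe set, with medians of 1536 in TKO ESC and 988 in TKO EB, was also lower (-0.65, adjusted p = 0.026, limma on probe sets). The third did not pass. Dim probe sets of Pola2, Pole2, Gins1, Dbf4 and Orc4 were lower past 0.05 as well. The median log2 change over the 40 genes was -0.29, with 29 negative beside 44.9% of all genes, against 0.08 for all tested genes, and 9 of the 40 had TKO EB arrays all below the TKO ESC arrays, beside 14.6% of all genes. Without line Ta1-12 the count was 3 (Orc1, Orc2 and Orc5), beside 8.4%, and the median was -0.08. Without the TKO EB array of Dutch it was 7, beside 19.2%. Without the TKO EB arrays of both Dutch and 14-14-4 it was 9, beside 19.6%, and without lines Dutch and Ta1-12 it was 2, beside 7.62%.

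Orc1 read 2113, 2182 and 2248 in TKO ESC and 490, 759, 434, 1064 and 226 in TKO EB, and fell 4.18-fold (-2.06 ± 0.45, adjusted p = 0.00414). Orc2 went from 3100, 2184 and 2675 to 1350, 998, 1115.0, 1509 and 633 (-1.29 ± 0.28, adjusted p = 0.00371). In both genes all 5 TKO EB arrays lay below all TKO ESC arrays, with Ta1-12 lowest and Dutch highest. Orc5 had the smallest adjusted p: it read 2761, 2536 and 2418 in TKO ESC and 782, 1110, 875, 1980.3 and 857 in TKO EB (-1.29 ± 0.26, adjusted p = 0.00291). Orc3 read 1982, 1947 and 2172 against 976, 1654.0, 1503, 1756 and 1024 (-0.60 ± 0.20, adjusted p = 0.0309), and did not pass without line Ta1-12 (-0.45, adjusted p = 0.163) or with the cell line as a block (adjusted p = 0.12). Its 2 dimmer probe sets did not pass either. Orc4 (-0.15 ± 0.18) and Orc6 (-0.18 ± 0.21) were not called.

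Outside the origin recognition complex no gene was called between TKO EB and TKO ESC with its brightest probe set. For Pola2, Rfc5, Tyms, Dut and Dbf4, however, all TKO EB arrays lay below all TKO ESC arrays. Polymerase and primase genes had log2 changes from -0.70 (Pole) to 0.10 (Prim1), with 0 of 9 past the threshold. The clamp and clamp loader had changes from -0.75 (Rfc5, adjusted p = 0.0807) to 0.39 (Rfc3), and the single-strand binding proteins from -0.33 (Rpa2) to 0.10 (Rpa3). Pcna read 15664, 14316 and 14753 in TKO ESC and 16647, 14335, 17135, 13155 and 12463 in TKO EB (-0.03 ± 0.15, adjusted p = 0.908). Its stages overlapped, and the Ta1-12 array was the lowest of the TKO EB. GINS genes ranged from -0.74 (Gins1) to 0.12 (Gins2), and Lig1 (-0.21) and Fen1 (0.01) were not called. Nucleotide enzymes ranged from -0.71 (Tyms, adjusted p = 0.0681) to 0.37 (Rrm1). Chaf1b (-0.47), Dbf4 (-0.84, adjusted p = 0.0964), Cdc7 (-0.30), Gmnn (-0.29) and Slbp (0.11) were not called.

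Lines measured at both stages give the change within a line. The median over the 40 genes was -1.75 in B21, -0.69 in J1 and -0.86 in R1. It was -0.04 in 7-4-1 and -0.02 in Dutch, and -1.14 in the line labelled Ta1-12. In B21, R1 and Ta1-12 all 40 genes were lower in EB, in J1 35, in Dutch 21 and in 7-4-1 20. Of all tested genes 42.9% to 46% were lower in each of the 6 lines. More than 2-fold falls were counted for 31 genes in B21, 10 in J1, 14 in R1, 23 in Ta1-12, 3 in 7-4-1 and 1 in Dutch. The same fall was seen for 15.4% of all tested genes in B21, 11.7% in J1, 12.3% in R1, 13.9% in Ta1-12, 12.9% in 7-4-1 and 3.64% in Dutch. The counts in 7-4-1 and Dutch were thus not above those shares, and line Dutch had few such falls over all genes. The 3 genes in 7-4-1 were Orc1 (-2.28), Orc2 (-1.48) and Orc5 (-1.66), and the 1 in Dutch was Orc1 (-1.04). Polymerase genes of 7-4-1 were close to 0 in the same comparison, such as Pold1 (0.27), Pole (-0.17) and Pola1 (0.03), while Rfc3 (0.89) and Rfc4 (0.83) were higher.

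**Figure D2:**
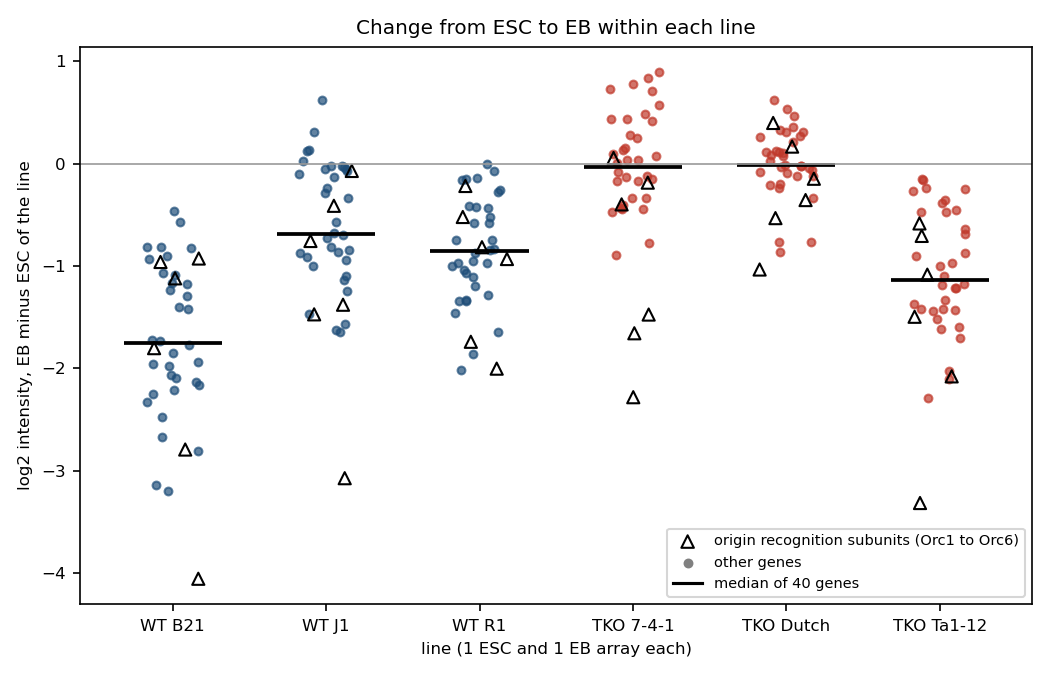
Log2 intensity of EB minus ESC for each of the 40 genes (points; open triangles are Orc1 to Orc6) within the 6 lines measured at both stages, with the median as a bar. The medians of B21, J1, R1 and Ta1-12 lie between -1.75 and -0.69, those of 7-4-1 and Dutch at -0.04 and -0.02. In 7-4-1 the 3 lowest triangles (Orc1, Orc2 and Orc5) stand apart from the other genes, and in Dutch the lowest is Orc1 at -1.04.

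Set against wild-type EB, the genes read higher in TKO EB, with the array labelled Ta1-12 as an exception. The log2 difference between TKO EB and WT EB was positive for 40 of 40 genes, beside 39.4% of all genes, with a median of 0.90 against -0.10 for all tested genes. With all arrays, 0 of the 40 and 0 of all 14365 genes passed adjustment (0% in either direction), and 32 of the 40 had an unadjusted p under 0.05 with a higher value, beside 4.48% of all genes. For 0 of the 40 were all TKO EB arrays above all WT EB arrays, beside 0.835%. Without line Ta1-12, 24 of the 40 were higher past the threshold, beside 2.7% of all genes, with a median of 1.16. The 4 remaining TKO EB arrays all lay above the WT EB arrays for 30 of the 40 genes, beside 6.13%. Leaving out only the TKO EB array of Ta1-12 gave 28, beside 3.34%. Leaving out lines Dutch and Ta1-12, the TKO lines whose Rbl1 was not near the floor, gave 8, beside 1.2%.

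The 24 genes were Pola1, Pola2, Prim1, Prim2, Pold1, Pole and Pole2 (7 of 9 polymerase genes), Rfc2, Rfc3, Rfc4 and Rfc5 (4 of 6), Rpa2 (1 of 3), Gins1 and Gins2 (2 of 4), Fen1 and Lig1 (2 of 2), Orc2 (1 of 6), Rrm1, Rrm2 and Tyms (3 of 5), Chaf1b, and Dbf4, Cdc7 and Gmnn (3 of 3). Those that did not pass were Pold2, Pold3, Pcna, Rfc1, Rpa1, Rpa3, Gins3, Gins4, Orc1, Orc3, Orc4, Orc5, Orc6, Tk1, Dut and Slbp. The median difference without Ta1-12 was 0.52 over the 6 origin recognition genes and 1.27 over the 9 polymerase genes, and a difference between roles was not tested.

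Values by array show where the TKO EB lines stood. Pold1 read 1862, 2639, 2944, 3547 and 625 in TKO EB, against 385, 905 and 722 in WT EB, a difference of 2.08 ± 0.28 without Ta1-12 (adjusted p = 0.00549). Pole read 1572, 1828, 1752, 1061 and 378, against 226, 561 and 502 (1.93 ± 0.30, adjusted p = 0.00825). In both, 4 TKO EB arrays were above every WT EB array, and the array labelled Ta1-12 lay between the lowest and the highest WT EB array. Gins1 read 1991, 1898, 2335, 2905 and 624 (1.88 ± 0.31, adjusted p = 0.0102), and Cdc7 read 2071, 1860, 2101, 1910 and 585 (1.45 ± 0.25, adjusted p = 0.0105). The Ta1-12 values of both again fell between those of the 3 WT EB arrays.

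The nucleotide enzymes Rrm1 and Rrm2, which had not passed in WT EB against WT ESC, were higher here. Rrm2 read 13770, 12428, 14192, 11420 and 3521 in TKO EB (1.60 ± 0.31, adjusted p = 0.0163), with 10534, 8920.2 and 8003 in TKO ESC. The 4 arrays other than Ta1-12 thus lay above all 6 ESC arrays as well. Rrm1 read 6930, 6773, 6975, 5902 and 3915 (0.73 ± 0.16, adjusted p = 0.0255), likewise above all ESC values on 4 arrays. The remaining genes with 1 TKO EB array far below the others were Pola2 (1447, 1659, 1876, 1503 and 693), Rfc2 (3273, 3799, 3729, 3452 and 2234), Rpa2 (2629, 2898, 2995, 3557 and 1170), Fen1 (3844, 4041, 3529, 3498 and 2125), Lig1 (4141, 4836, 5151, 4776 and 2092) and Dbf4 (3387, 4431, 3273, 4202 and 1226). In each of them the low array was Ta1-12.

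**Figure D3:**
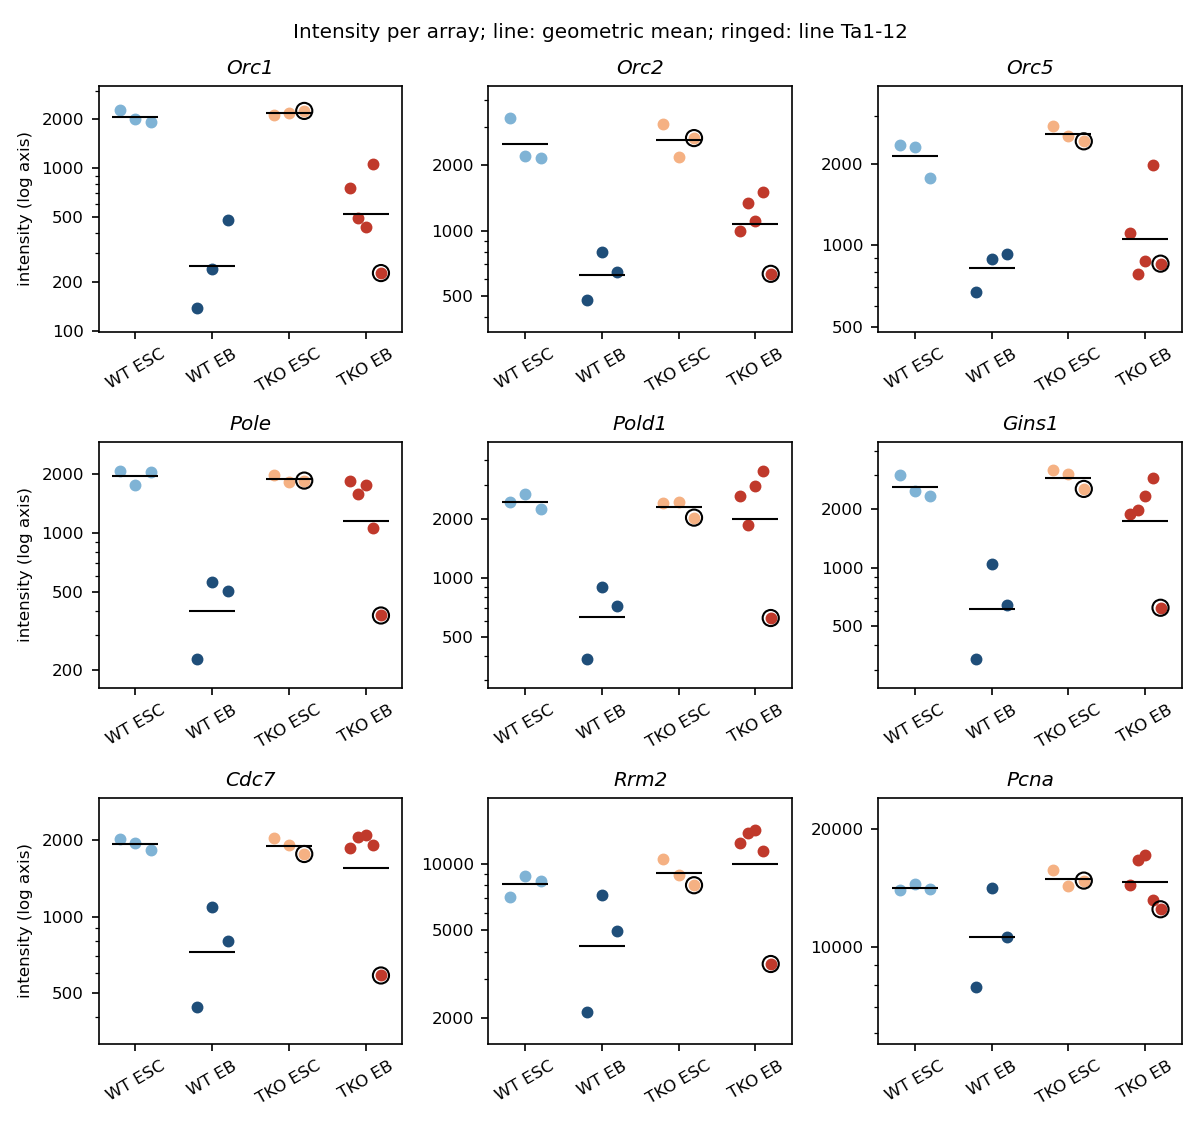
Intensity (log axis) of 9 genes on each array, by group; points are arrays, the bar is the geometric mean of the group and rings mark line Ta1-12. For Orc1, Orc2 and Orc5 all TKO EB points lie below TKO ESC, while for Pole, Pold1, Gins1, Cdc7 and Rrm2 the ringed TKO EB point lies with WT EB and the other 4 lie higher.

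Over the 40 genes, the median log2 level minus the WT ESC mean was -1.64, -0.58 and -0.91 on the WT EB arrays of B21, J1 and R1. On the TKO EB arrays it was -0.21 for 2-55-2, -0.03 for 14-14-4, 0.09 for 7-4-1 and 0.16 for Dutch, and -1.05 for Ta1-12. The array labelled TKO EB Ta1-12 was the lowest TKO EB array for 37 of the 40 genes. Its values fell inside the WT EB range for 37 genes and below it for 3. On WT EB arrays 40 (B21), 26 (J1) and 39 (R1) of the genes lay below all 6 ESC arrays, as did 40 on Ta1-12, 21 on 2-55-2, 15 on 14-14-4, 10 on 7-4-1 and 9 on Dutch. Of all tested genes 20.8% lay below all ESC arrays on Dutch and 29.4% to 33.7% on each of the other 7 EB arrays.

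**Figure D4:**
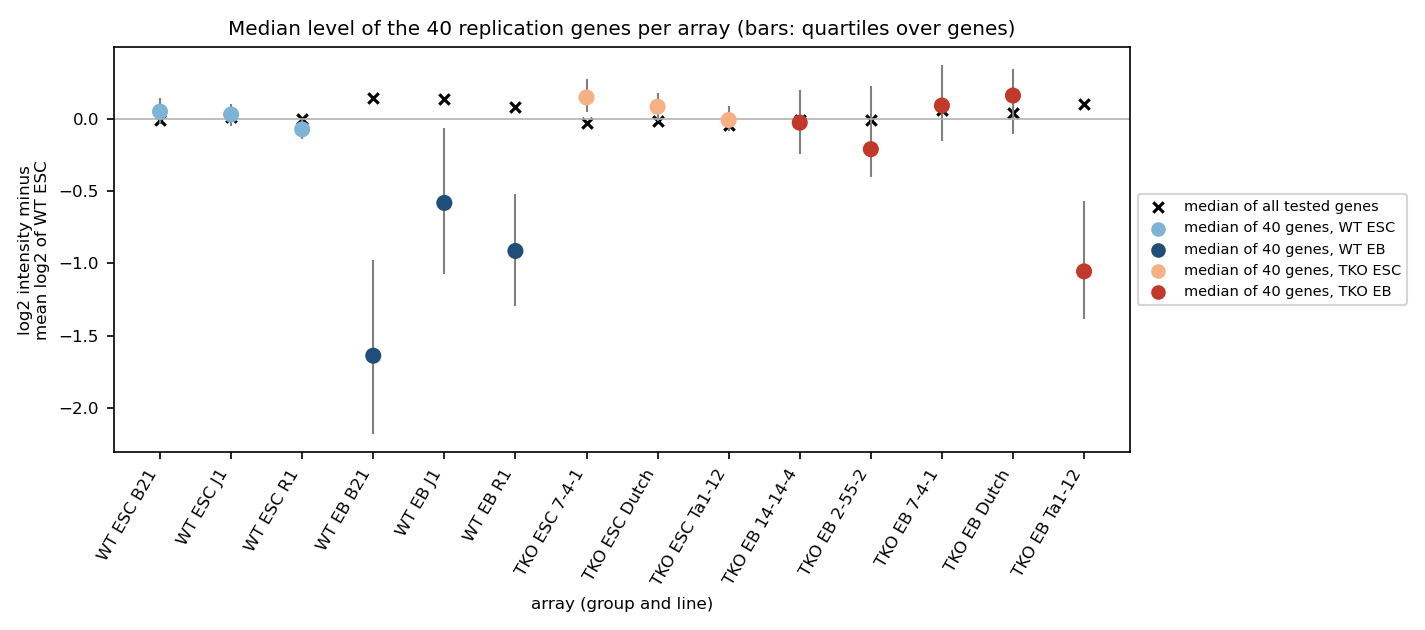
Median of the 40 genes on each array (points, with quartiles over genes as bars) and of all tested genes (crosses), as log2 intensity minus the mean log2 of WT ESC. The WT EB medians run from -1.64 to -0.58 and the array labelled TKO EB Ta1-12 is at -1.05, while the other 4 TKO EB arrays run from -0.21 to 0.16 and the crosses stay near 0.

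Markers of the cell types that such cultures can hold also differed between the arrays, and their part in the result was not tested. The summed intensity of 8 pluripotency genes was 73068 to 97577 on the ESC arrays and 3563 to 4450 on WT EB. On TKO EB it was 17001 for 2-55-2, 58275 for 14-14-4, 9644 for 7-4-1, 72653 for Dutch and 4775 for Ta1-12. Pou5f1, which defines pluripotent cells, read 38.8, 32.8 and 55.2 in WT EB and 1542, 6133, 147, 7410.3 and 17.1 in TKO EB, against 9879.8 to 12950.1 on the ESC arrays. The TKO EB arrays of Dutch and 14-14-4 thus carried most pluripotency signal among the EB arrays. The array of 7-4-1 had low Pou5f1, the highest sum of 6 mesenchyme genes of all EB arrays (95409, against 70025 to 92456 in WT EB), and a median of the replication genes of 0.09, at ESC level. The same array had the highest neural sum of all EB arrays (12471). Its pluripotency genes, Pou5f1 included, all lay above every WT EB array except Tdgf1. Sox2 read 6558 and Dppa5a 2207, against at most 3600 and 651 in WT EB. Sums of the mesenchyme genes were 70559 for 2-55-2, 46959 for 14-14-4, 21787 for Dutch and 71256 for Ta1-12. Endoderm markers (6 genes) summed to 7726 to 44463 in TKO EB and 16801 to 51519 in WT EB, cardiac muscle markers (5 genes) to 2722 to 48008 and 8321 to 39200.2, haematopoietic markers (4 genes) to 110.0 to 7211 and 8869 to 15290.0, and neural markers (4 genes) to 902 to 12471 and 2289 to 8082. Of the haematopoietic genes up to 3 lay under the floor on a TKO EB array and up to 2 on a WT EB array, and of the pluripotency genes 4 lay under it on the TKO EB array of Ta1-12.

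Among stem cells no difference between the genotypes was called. Between TKO ESC and WT ESC 0 of the 40 genes and 0 of all genes passed (0% in either direction), with a median log2 difference of 0.06 and a range from -0.13 (Orc4) to 0.72 (Tyms). At an unadjusted p under 0.05, Tyms was the 1 member that was higher, beside 0.668% of all genes, and 0 were lower, beside 2.07%. Its TKO ESC values were 201, 187 and 199, on a dim probe set. The 3 TKO ESC arrays lay above the 3 WT ESC arrays for 5 genes, Pola2, Pole2, Orc5, Orc6 and Tyms, beside 4.64% of all genes, and below them for 0, beside 6.84%. The error of each gene was shared by ESC and EB arrays. For Pola2 the standard deviation of log2 was 0.02 (WT) and 0.08 (TKO) in ESC, but 0.50 and 0.56 in EB. Orc3 in WT went the other way (0.13 in ESC, 0.07 in EB). Where EB arrays spread more, a small ESC difference could be missed, so the genotypes are not shown to be alike.

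The difference between the changes (TKO minus WT) was positive for 40 of 40 genes, beside 45.1% of all genes, with a median of 0.77, but 0 of the 40 and 0 of all genes passed (limma interaction, 0% in either direction). At an unadjusted p under 0.05 the count was 4 of 40, beside 1.17% of all genes. These were Pold1 (1.76 ± 0.69), Pole (1.58 ± 0.68), Rfc4 (1.20 ± 0.51) and Lig1 (1.12 ± 0.48), each with an adjusted p of 0.975. Without line Ta1-12 the median was 0.94 and again 0 of the 40 passed, with 20 at an unadjusted p under 0.05, beside 3.54%, and a lowest adjusted p of 0.216. Of all genes 5 passed then, each with a negative difference (0.0348%). A fall in WT EB and no call in TKO EB was thus not shown to differ between the genotypes for any single gene after adjustment. For the origin recognition genes called in both genotypes the difference was 0.98 for Orc1, 0.71 for Orc2, 0.30 for Orc3 and 0.08 for Orc5.

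Other genes of the pathway were read as 4 lists. Licensing genes (10: Mcm2 to Mcm7, Mcm10, Cdc6, Cdt1 and Cdc45) are the MCM helicase subunits and factors that load or start the helicase. In WT EB 8 of 10 fell, beside 17.4% of all tested genes. The count was 6 without the WT EB array of B21, beside 12.2%, and 10 without line Ta1-12, beside 17.7%. Examples are Mcm2 (-0.94 ± 0.21, adjusted p = 0.00355) and Mcm10 (-2.87 ± 0.64, adjusted p = 0.00381). In TKO EB against TKO ESC 0 of 10 passed, with a median of -0.17, beside 14.9% of all genes lower and 20.8% higher. In TKO EB against WT EB with all arrays 0 of 10 and 0 of all genes passed. Without line Ta1-12, 10 of 10 were higher in TKO EB than in WT EB, beside 2.7% of all genes. Mcm10 (2.31 ± 0.37, adjusted p = 0.0090) and Cdc45 (2.09 ± 0.34, adjusted p = 0.0100) led.

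Replication helpers (26 tested genes: topoisomerases, fork protection, histone chaperones and accessory subunits) fell in WT EB for 14 and rose for 2. Of all tested genes 17.4% fell and 26.2% rose. Without the B21 array 9 helpers fell and 2 rose, beside 12.2% of all genes lower. In TKO EB against TKO ESC 7 fell and 2 rose, beside 14.9% and 20.8% of all genes. With all arrays the 2 that rose in both were the small polymerase subunits Pole3, which is also part of a chromatin remodelling complex, and Pold4. Pole3 read 664, 659 and 697 in WT ESC and 1441, 1553 and 1592 in WT EB (1.18 ± 0.17, adjusted p = 4.71e-04). In TKO EB it read 1669, 1821, 1785, 1181 and 1447, against 757, 669 and 753 in TKO ESC (1.11 ± 0.16, adjusted p = 3.22e-04). Every EB array was thus above every ESC array for Pole3. Its catalytic partner Pole fell in WT EB, and in TKO EB it was not called (-0.70, adjusted p = 0.246, arrays overlapping). Among the falls were Recql4, a helicase of origin firing (-1.67 ± 0.34 in WT, -1.02 ± 0.31 in TKO), and Chtf18, of the alternative clamp loader (-2.72 ± 0.57 and -1.61 ± 0.51). Without line Ta1-12 0 helpers fell in TKO EB and 2 rose, Pole3 (1.16 ± 0.20) and Rnaseh2c, a subunit of ribonuclease H2 (0.70 ± 0.19, adjusted p = 0.0243), while Pold4 did not pass (0.90 ± 0.45, adjusted p = 0.169). Of all genes 8.4% fell in TKO EB then. Also without that line, 13 of the 26 helpers were higher in TKO EB than in WT EB, beside 2.7% of all genes. An example is Uhrf1 (1.62 ± 0.30, adjusted p = 0.0142).

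Nucleotide supply (34 tested genes of purine and pyrimidine synthesis, one-carbon steps and kinases) changed in both genotypes. In WT EB 21 were lower and 1 higher, beside 17.4% and 26.2% of all tested genes. Without the B21 array it was 17 and 1, beside 12.2% of all genes lower. In TKO EB 16 were lower and 2 higher, beside 14.9% and 20.8%. Without line Ta1-12 it was 10 and 1, beside 8.4% of all genes lower. Dhodh, of pyrimidine synthesis, read 2063, 1964 and 1817 in WT ESC and 501, 809 and 430.2 in WT EB (-1.80 ± 0.29, adjusted p = 7.68e-04). In TKO it went from 2264, 2138 and 2393 to 589, 622, 626, 1134 and 472 (-1.78 ± 0.26, adjusted p = 4.24e-04). All EB arrays lay below all ESC arrays in both genotypes. The purine enzymes Atic (-0.98 ± 0.14 in WT, -0.77 ± 0.12 in TKO), Ppat (-1.95 ± 0.33 and -1.48 ± 0.30), Gart (-2.31 ± 0.40 and -1.71 ± 0.36) and Pfas (-1.84 ± 0.35 and -1.51 ± 0.31) passed in both. Within line 7-4-1 the median EB minus ESC change of this list was -0.85, beside -0.04 for the 40 replication genes of the same arrays. Between TKO EB and WT EB without Ta1-12, 2 of 34 were higher, beside 2.7% of all genes.

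The proliferation list (7 tested genes, among them Mki67, Cdk1 and Plk1) had 2 lower in WT EB, beside 17.4% of all tested genes. These were Plk1 (-1.55 ± 0.43, adjusted p = 0.0121) and Bub1 (-1.71 ± 0.52, adjusted p = 0.0182). Without the B21 array 0 were lower, beside 12.2%. In TKO EB against TKO ESC 1 rose, E2f1 (0.49 ± 0.17, adjusted p = 0.0364), beside 20.8% of all genes, and 0 without line Ta1-12. Counts of 2 and 1 among 7 genes are too small to be read as a result about the list. Without line Ta1-12, 5 of 7 were higher in TKO EB than in WT EB, beside 2.7% of all genes.

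**Figure D5:**
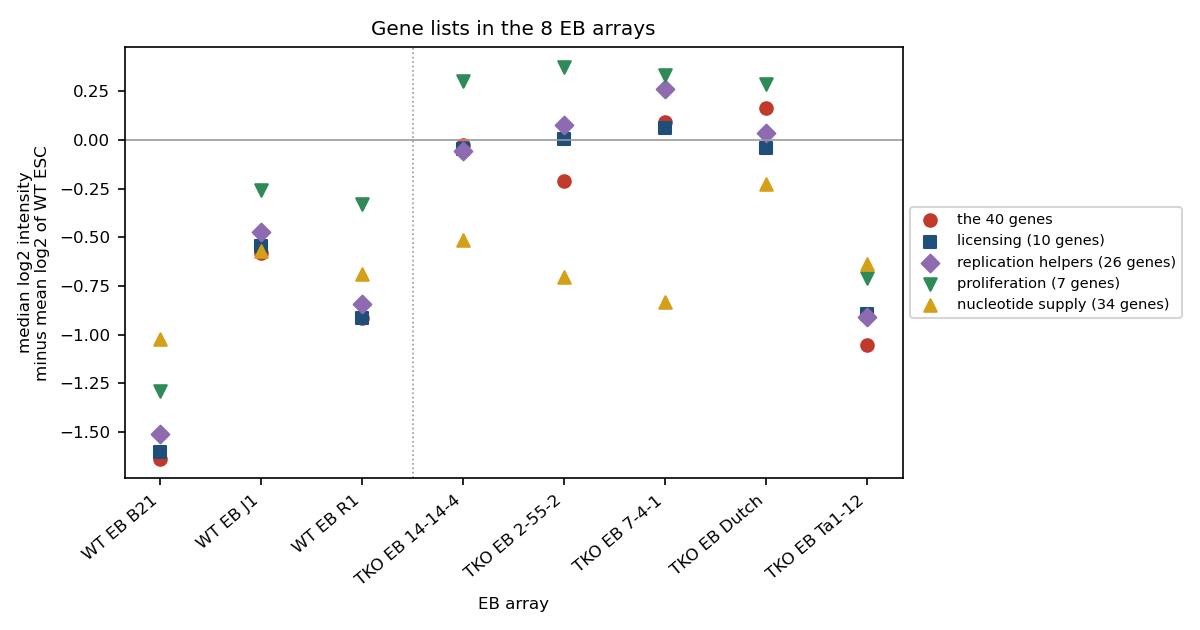
Median log2 intensity minus the mean log2 of WT ESC for the 40 genes and 4 further lists on the 8 EB arrays (dotted line between WT and TKO). On the TKO EB arrays other than Ta1-12 the nucleotide supply list (triangles pointing up) lies at -0.84 to -0.23, and the 40 genes, licensing and helper lists lie between -0.21 and 0.26.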

How the data were processed

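RNA from 14 cultures, extracted with Trizol and biotin-labelled, was hybridised to Affymetrix arrays of 45101 probe sets, per the labels' protocols. The authors deposited linear intensities (0.596 to 25701.6). No background correction or scaling is named in the sources used here. The series text calls the arrays of a group biological replicates.

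Intensities were raised to a floor of 32 and taken to log2. A symbol was given to 34958 probe sets; 932 with several and 9211 with none were left out, and each gene was read by its brightest probe set. Genes above the 40th percentile of an array on at least 3 arrays were tested with limma 3.58.1 (R 4.3.3), with 1 mean per group over all 14 arrays, an intensity trend, and Benjamini-Hochberg adjustment within each of 5 comparisons at 0.05. The number of arrays limits the precision. The method was tested on simulated data with independent noise, of the same spread in every group for a given gene. Spreads that differ between ESC and EB were thus not covered. Errors are standard errors of the fit. Promoters came from the RefSeq table (GRCm38.p6).

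Members and lists were chosen with earlier results of these data known. Every member is named. Values on every array are given for the 6 largest changes in WT EB, the up to 4 smallest adjusted p in each other comparison, genes with an outlying TKO EB array, genes next to the threshold and Pcna. Up to 4 genes of each further list are named by smallest adjusted p. Array values of other members, and Gart, Pole3, Dhodh, Rnaseh2c and E2f1 where outside this rule, were added after their values were seen.

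WT and TKO stages share line names, which pairs ESC with EB of the same cell line. Over 14365 genes the deviations from the group means correlated by -0.046 in B21, -0.078 in J1, -0.037 in R1, 0.066 in 7-4-1, 0.196 in Dutch and 0.090 in Ta1-12, and over the 40 genes by 0.077 (J1) to 0.254 (R1), positive in all 6 lines. Alternatives covered scaling, floor, filter, probe set, line as a block, array weights and leaving out arrays. Leaving out both lines Dutch and Ta1-12 was added after seeing the data.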

Additional observations from a re-analysis of the deposited data

Results flagged for a closer look

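In TKO EB, 10 of the 40 genes had 1 array that stood apart from the other 4 by Dixon's criterion (gap over range above 0.71), and in 10 of 10 it was the array labelled Ta1-12, as the lowest. Chance alone marks about 5% of groups of independent values, but the genes share the same 5 arrays. Over all tested genes 8.9% had such an array, and in 1.25% it was Ta1-12 as the lowest. Its intensities were 693.4 for Pola2, 2233.9 for Rfc2, 1169.5 for Rpa2, 623.6 for Gins1 and 2125.4 for Fen1. They were 2091.5 for Lig1, 3914.8 for Rrm1, 3520.8 for Rrm2, 1225.5 for Dbf4 and 585.1 for Cdc7. The gap over range was largest for Cdc7 (0.905) and Rrm2 (0.844). On the same array Rbl1 read 1096, and what sets the array apart was not tested.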

How the results depend on the processing

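In WT EB against WT ESC the count of 25 ran from 12 to 30 when 1 array was left out, 12 being without the WT EB array of B21. In TKO EB against TKO ESC the count of 4 was 8 with array weights, 7 with the mean of all probe sets, 9 without the TKO EB arrays of Dutch and 14-14-4, 2 without lines Dutch and Ta1-12, and 3 to 7 when 1 array was left out, 7 being without the TKO EB array of Dutch. In TKO EB against WT EB the count of 0 became 24 without line Ta1-12, 8 without lines Dutch and Ta1-12, and 0 to 28 when 1 array was left out. With the second probe set, where a gene had one, 16 of the 25 calls in WT EB against WT ESC held, 6 were lost and 1 reversed. For Pola1 and Pole2 that probe set was too dim to test. The second Orc4 probe set reversed the sign, to 0.54 in WT EB against WT ESC and to -0.22 in TKO EB against WT EB. The causes were not tested.

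With the cell line as a fixed replicate block 22 genes were lower in WT EB and 3 in TKO EB. Pold3, Rfc4, Orc4 and, in TKO, Orc3 then missed the threshold; with the line as a random block the counts were 25 and 4. Quantile normalization gave 29 in WT EB and a median of -1.12. Over all genes it turned the split in WT EB from 2493 lower and 3767 higher to 3478 and 3027, and centring on array medians to 3292 and 2969. In TKO EB the split went from 2145 and 2987 to 2768 and 2617, and to 2563 and 2531. Tyms was read by dim probe sets only, which limits its precision.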
